A study of Mus musculus with 5 samples.

Results

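The interferon-induced TRIM genes examined here are Trim30a, Trim30d, Trim12a, Trim12c, Trim34a, Trim21, Trim25 and Trim14, 8 genes of the tripartite motif family. They form a named list that was selected on measured values, the differences between RG7112 and vehicle tumours, which were already known. Their differences in that comparison, and whether they passed the threshold of the array-wide fit, are therefore given as a description, with no p-value, and support nothing. Of these 8 genes, 7 had a probe set named after them on the array, among 19505 named genes in all. Trim34a had none and was not analysed here beyond its promoter. Where a gene has several probe sets, the one with the highest mean over the tumours stands for it, but each of the 7 had only 1.

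The tumours were subcutaneous melanomas of B16.F10 cells carrying luciferase and green fluorescent protein, a mouse melanoma line, grown in wild-type C57BL/6 mice aged 10 weeks and taken on day 13. In 3 mice anti-PD-1, an antibody against an inhibitory receptor of T cells, was combined with RG7112, a small molecule that keeps MDM2 from binding p53; in the other 2 it was combined with the vehicle, corn oil with 5% DMSO. All mice received anti-PD-1 on days 1, 4 and 8, and RG7112 or vehicle by mouth every 2 days over 6 days, so no tumour was without anti-PD-1. Each tumour was 1 mouse and 1 Affymetrix Clariom S array of the whole tissue, tumour cells and infiltrating immune cells together. In such tissue, more cells that express a gene and more RNA per cell cannot be told apart. Signals are on the log2 scale, where a difference of 1 is a doubling of the linear signal. The RG7112 tumours are numbered 1, 2 and 3 and the vehicle tumours 3 and 4, as labelled, and a shared number pairs nothing.

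TRIM proteins combine a RING domain, B-boxes and a coiled coil, and most act as ubiquitin ligases. A subset is switched on by interferons and works in innate immunity: Trim25 modifies the RNA sensor RIG-I, Trim14 is an adaptor at mitochondria for the signalling protein Mavs, and Trim21 binds antibody-coated virus inside the cell and sends it to the proteasome. Trim30a is known in the mouse as a brake on NF-kB signalling from Toll-like receptors, and mouse Trim12c as a partner of Traf6 in interferon induction. Interferon signals reach genes through DNA elements, among them the interferon-stimulated response element, bound by a complex that holds Stat2 and Irf9, and the gamma-activated site.

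The promoters of the genes are shown because a shared response element can be read in them directly. RefSeq windows on GRCm38.p6, from 250 bases before to 50 bases after each annotated transcription start, were available for 7 of the 8 genes, Trim34a included; Trim14 was not among them. They were searched on both strands for the core of the interferon-stimulated response element, GAAANNGAAA, and for the core of the gamma-activated site, TTCNNNGAA. The lines below give 120 bases of each, 90 before the start and 30 from it, 5′ to 3′ on the strand of the gene, with matches to GAAANNGAAA or its reverse complement in capitals. Trim30b, a neighbour of Trim30a, and Trim25 are shown as windows without a match.

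Trim30a, chr7:104465164-104465283, minus strand: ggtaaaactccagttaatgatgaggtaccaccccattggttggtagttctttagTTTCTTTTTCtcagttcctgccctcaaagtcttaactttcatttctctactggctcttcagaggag

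Trim30d, chr7:104507820-104507939, minus strand: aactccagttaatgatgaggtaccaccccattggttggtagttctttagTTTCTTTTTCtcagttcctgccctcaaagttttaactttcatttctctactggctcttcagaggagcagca

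Trim12a, chr7:104315466-104315585, minus strand: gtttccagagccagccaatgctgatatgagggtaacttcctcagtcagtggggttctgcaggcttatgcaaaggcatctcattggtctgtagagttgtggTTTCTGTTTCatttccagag

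Trim12c, chr7:104353320-104353439, minus strand: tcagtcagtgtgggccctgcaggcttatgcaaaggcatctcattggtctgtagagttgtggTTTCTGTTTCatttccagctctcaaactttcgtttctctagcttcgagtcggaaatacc

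Trim34a, chr7:104244367-104244486, plus strand: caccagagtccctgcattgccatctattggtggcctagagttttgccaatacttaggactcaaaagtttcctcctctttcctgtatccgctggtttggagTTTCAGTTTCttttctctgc

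Trim21, chr7:102565453-102565572, minus strand: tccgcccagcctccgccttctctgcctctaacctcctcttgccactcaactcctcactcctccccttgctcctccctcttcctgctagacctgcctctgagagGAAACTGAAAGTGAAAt

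Trim25, chr11:88999313-88999432, plus strand: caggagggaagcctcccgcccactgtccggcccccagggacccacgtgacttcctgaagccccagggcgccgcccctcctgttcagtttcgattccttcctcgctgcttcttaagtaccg

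Trim30b, chr7:104358617-104358736, minus strand: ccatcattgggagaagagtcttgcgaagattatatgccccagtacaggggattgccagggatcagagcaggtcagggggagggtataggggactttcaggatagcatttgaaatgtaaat

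The core GAAANNGAAA occurred in the windows of 6 of the 7 genes, and all 6 lie on chromosome 7. The exception was Trim25 on chromosome 11. Across all 32851 RefSeq windows of the same length, 3.44% held it. That share counts single windows, whereas a gene was counted if any of its windows held the core. In Trim30a it lay at bases -36 to -27 from the start and in Trim30d at -41 to -32, both times as the same 10 letters. Trim12a carried it at 11 to 20 and Trim12c at -29 to -20. Trim34a, the gene without a probe, carried it at 11 to 20. In Trim21 there were 2 matches on the strand of the gene, at 14 to 23 and 20 to 29, which overlap by their shared GAAA. A second annotated start of Trim30a had a match at 3 to 12. The gamma-activated core was in the windows of 0 of the 7 genes and in 8.30% of all windows. At that share 7 genes are too few to read a lack of the element from this.

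These windows are not independent of each other. Aligned end to end, the Trim30a and Trim30d windows were identical in 277 of 305 alignment columns (90.8%). Those of Trim12a and Trim12c were identical in 248 of 340 (72.9%), and those of Trim30a and Trim30b in 169 of 339 (49.9%). Trim30a and Trim21 gave 48.1%. Columns with a gap count as not identical, and each window has 300 bases. The core lies at 11 to 20 in Trim12a but at -29 to -20 in Trim12c. Such an offset adds gap columns, so 72.9% understates the likeness of the bases they share. Among the other TRIM family genes measured on the array, 44 had a window and 2 of them, Trim26 and Trim2, held GAAANNGAAA. Both are described below with their signals. A match says only that these letters are present.

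**Figure D1:**
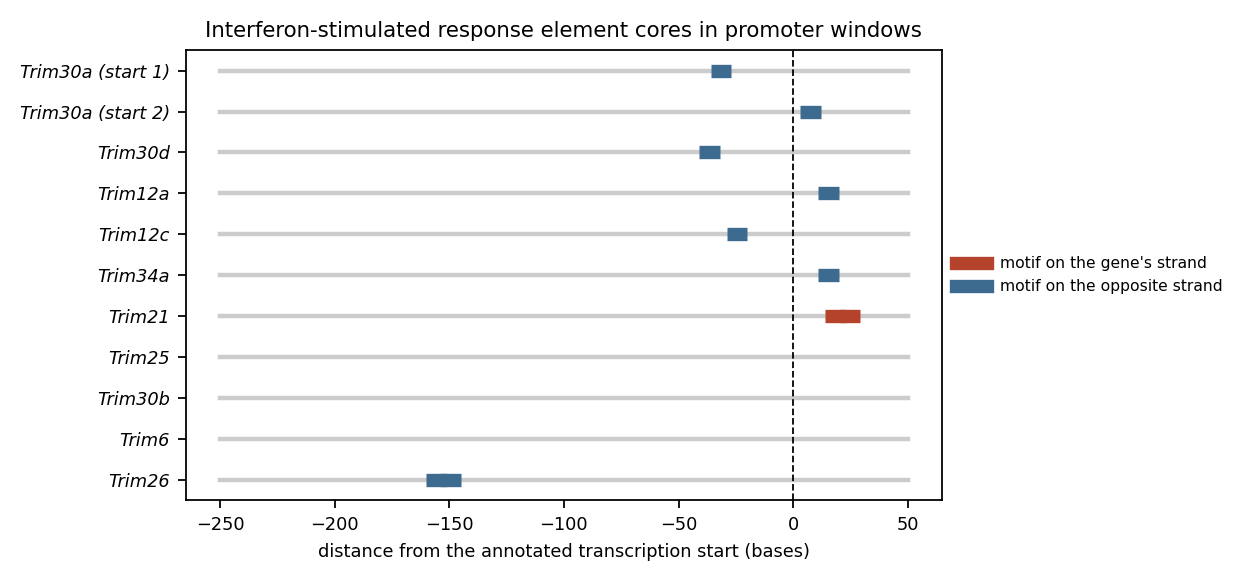
Positions of GAAANNGAAA in RefSeq promoter windows, in bases from the annotated transcription start (dashed line). Rows are windows, red bars are matches on the strand of the gene and blue bars matches on the opposite strand. Matches in Trim30a, Trim30d, Trim12a, Trim12c, Trim34a and Trim21 lie between -41 and 29, those in Trim26 start at -160 and -154, and Trim25, Trim30b and Trim6 have none.

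All 7 measured genes had higher signals in RG7112 tumours than in vehicle tumours. Their differences ran between 0.78 (Trim25) and 2.12 (Trim30a) on the log2 scale, with a median of 1.10, against a median of -0.03 over all 22203 probe sets. In all 7 the lowest RG7112 tumour lay above the highest vehicle tumour, a separation seen in 10.8% of all probe sets. In the fit over the whole array (limma with Benjamini-Hochberg adjustment, adjusted p under 0.05), 4 of the 7 passed, namely Trim30a, Trim21, Trim12a and Trim14, against 1.42% of all probe sets passing in this direction. Since the genes were chosen with this comparison known, nothing is read from these counts or from which genes passed.

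Trim30a, the regulator of NF-kB signalling, had signals of 7.32, 6.77 and 7.26 in RG7112 tumours 1, 2 and 3, against 5.22 and 4.76 in vehicle tumours 3 and 4. The difference was 2.12 ± 0.21 (SE), a 4.36-fold higher linear signal, and the gap between the groups, 1.55, was wider than the 0.55 spanned by the RG7112 tumours and the 0.46 spanned by the vehicle tumours. With each tumour left out in turn the difference was between 1.89 and 2.35.

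Trim30d, its neighbour and close relative, was at 4.34, 3.88 and 3.70 in RG7112 tumours, against 3.01 and 3.37 in vehicle tumours. Its difference was 0.79 ± 0.21 (SE), and the gap between the groups, 0.33, was narrower than the range within either group. Its signal lay among the dimmest 40% of probe sets. The files hold no probe sequences, so signal shared between the close copies Trim30a and Trim30d, or Trim12a and Trim12c, was not tested.

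Trim12a, a rodent relative of the primate retroviral restriction factor TRIM5, measured 8.61, 8.15 and 8.24 in RG7112 tumours, against 7.26 and 7.35 in vehicle tumours. The difference was 1.03 ± 0.18 (SE), a 2.04-fold higher linear signal, and the vehicle tumours lay only 0.09 apart. Trim12c, the partner of Traf6, measured 5.25, 5.11 and 4.13 in RG7112 tumours, against 3.79 and 3.49 in vehicle tumours. RG7112 tumour 3 lay far below the other RG7112 tumours and 0.35 above the higher vehicle tumour. The difference of 1.20 ± 0.29 (SE) had the largest error among the 7, and it was 1.54 without RG7112 tumour 3.

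Trim21, the intracellular antibody receptor, measured 7.47, 6.72 and 7.08 in RG7112 tumours, against 5.98 and 5.67 in vehicle tumours. The groups were apart by 0.74, about as much as the range among the RG7112 tumours, and the difference was 1.26 ± 0.22 (SE), or 2.40-fold. Trim25, the ligase for RIG-I and for ISG15, measured 7.31, 7.40 and 7.41 in RG7112 tumours, against 6.39 and 6.81 in vehicle tumours. Its RG7112 tumours spanned only 0.11 while its vehicle tumours spanned 0.42, and its difference was 0.78 ± 0.17 (SE). The Trim25 difference was 0.56 without vehicle tumour 3 and 0.99 without vehicle tumour 4.

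Trim14, the mitochondrial adaptor, measured 4.90, 4.90 and 4.99 in RG7112 tumours, against 4.05 and 3.62 in vehicle tumours. The RG7112 tumours lay within 0.08 of each other, and the difference was 1.10 ± 0.17 (SE), or 2.14-fold. Like Trim30d and Trim12c, it lay among the dimmest 40% of probe sets.

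**Figure D2:**
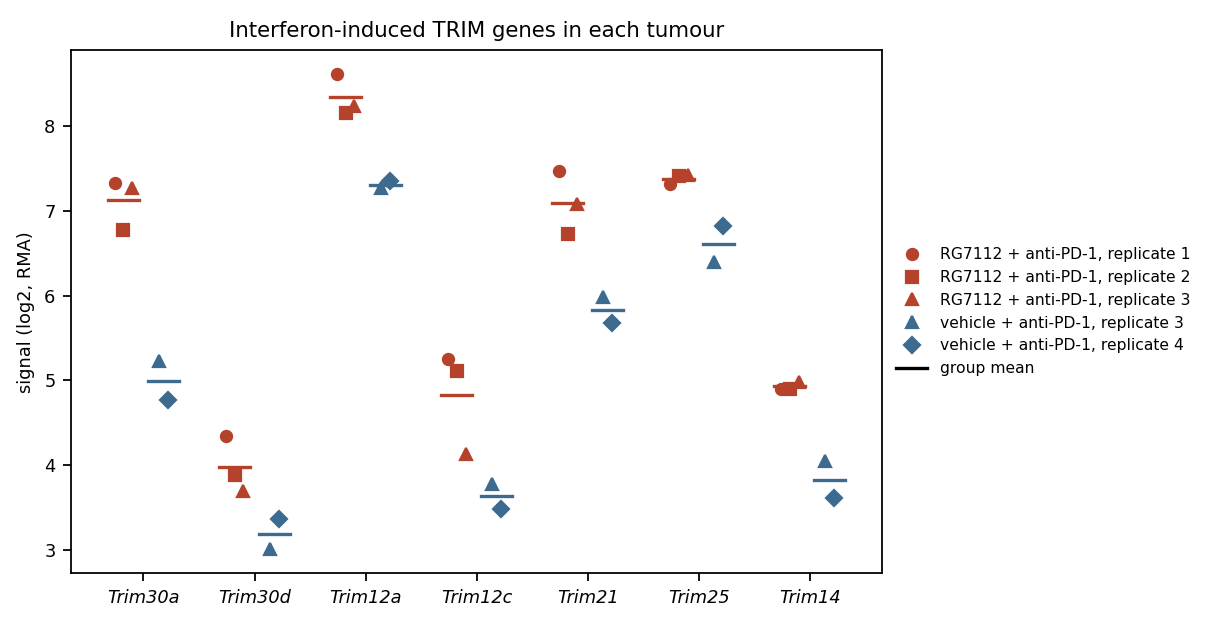
Signals (log2, RMA) of the 7 measured interferon-induced TRIM genes in each tumour, RG7112 in red and vehicle in blue, both with anti-PD-1; lines mark group means. In each gene the RG7112 tumours lie above the vehicle tumours, by 1.55 in Trim30a and by 0.33 in Trim30d, where the gap is narrowest.

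The 7 genes did not share a single order of tumours. RG7112 tumour 1 was the highest of the 5 in Trim30a, Trim30d, Trim12a, Trim12c and Trim21, the 5 measured genes of chromosome 7, and it was the lowest RG7112 tumour in Trim25 and Trim14, where the RG7112 tumours nearly coincided. Vehicle tumour 4 was the lowest in 4 of the 7 and vehicle tumour 3 in the remaining 3. Averaged over the 7 genes after centring each on its own mean, RG7112 tumours 1, 2 and 3 stood at 0.69, 0.37 and 0.35 and vehicle tumours 3 and 4 at -0.66 and -0.75.

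Fewer of the genes passed when either vehicle tumour was left out, which leaves only the other vehicle array in the fit. A call lost in this way cannot be told apart from the loss of replication. The same limit holds for every result given below without a vehicle tumour. Without vehicle tumour 4 only Trim30a passed, and without vehicle tumour 3 Trim30a and Trim14. Trim12a then differed by 1.07 (without vehicle tumour 4) and 0.98 (without vehicle tumour 3), and Trim21 by 1.10 and 1.42. Trim14 differed by 0.88 without vehicle tumour 4. Without RG7112 tumour 3, Trim12c passed and Trim21 did not, with a Trim21 difference of 1.27.

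Most of the genes lie in 1 TRIM cluster on chromosome 7. In the RefSeq gene order this cluster runs through Trim6, Trim34a, Trim5, Trim12a, Trim34b, Trim12c, Trim30b, Trim30c, Trim30a, Trim30d and the pseudogene Trim30e-ps1, 11 genes of which 7 had a probe set. The 4 measured interferon-induced genes in it differed by 0.79 to 2.12. The 3 other measured genes did not pass, and Trim30b lies between Trim12c and Trim30a. Trim30b measured 3.64, 3.59 and 3.51 in RG7112 tumours, against 4.04 and 3.32 in vehicle tumours, so the RG7112 values fell between the vehicle values (difference -0.10 ± 0.21 SE, limma adjusted p = 0.946). Trim30e-ps1 measured 3.96, 3.71 and 3.72 in RG7112 tumours, against 3.70 and 3.86 in vehicle tumours. It differed by 0.02 ± 0.16 (SE, limma adjusted p = 0.991). Like Trim14, Trim30b and Trim30e-ps1 lay among the dimmest 40% of probe sets. Their signal over background was not measured, so no lack of response is read from them. Trim6 measured 5.03, 5.42 and 5.15 in RG7112 tumours, against 4.99 and 4.46 in vehicle tumours, a difference of 0.47 ± 0.20 (SE, limma adjusted p = 0.502). Neither Trim30b nor Trim6 held GAAANNGAAA in its window. Trim5, a gene of the cluster that is not on the list and had no probe set, held it at -49 to -40. Its letters there were the same as in Trim12a and Trim12c.

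**Figure D3:**
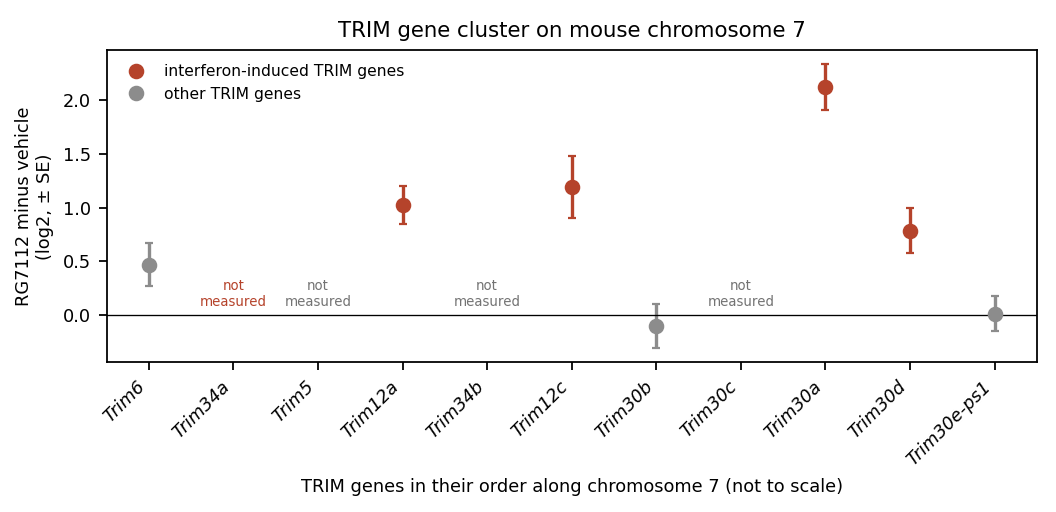
Difference between RG7112 and vehicle tumours (log2, error bars SE) for the TRIM genes of the chromosome 7 cluster, in gene order but not to scale. Trim12a, Trim12c, Trim30a and Trim30d (red) differ by 0.79 to 2.12, while Trim30b and Trim30e-ps1 (grey) lie at -0.10 and 0.02. Signals of Trim30b and Trim30e-ps1 were dim, as were those of Trim12c and Trim30d. For 4 genes there was no named probe set.

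The TRIM family as a whole did not follow these genes. The family was taken by symbol (Trim with a number, plus Pml, Mefv, Mid1 and Mid2), and 65 of its 73 RefSeq genes were measured. In the limma fit 4 of the 65 were higher, all of them among the genes described above, and 0 were lower, against 1.42% of all probe sets higher and 0.0315% lower. The 4 became 1 without vehicle tumour 4 and 2 without vehicle tumour 3. The family's median difference was -0.11. Of the 58 family genes left after the interferon-induced ones were taken out, 0 passed. At an unadjusted p under 0.05, 1 of the 58 was higher, Trim6, and 4 were lower. Over all 22203 probe sets, 1073 were higher and 901 lower at that unadjusted threshold. These are the background for the unadjusted counts of the lists below. No family gene outside the 8 passed under any alternative setting either. Because the 8 were listed with results of this comparison known, a low count in the remainder follows in part from that choice.

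The family genes with the smallest unadjusted p after the interferon-induced ones were mostly lower. Trim67, known from neurons, measured 4.39, 4.55 and 4.72 in RG7112 tumours, against 5.14 and 5.22 in vehicle tumours (difference -0.63 ± 0.16 SE, limma adjusted p = 0.132). The muscle protein Trim55 differed by -0.52 ± 0.18, Trim43c by -0.51 ± 0.15, the neuronal Trim46 by -0.50 ± 0.19 and Trim9 by -0.34 ± 0.15. None of these passed the test. Trim67, Trim55, Trim46 and Trim9 belong to the 9 TRIM genes with a COS box, a microtubule-binding domain, of which 0 passed in limma (at an unadjusted p under 0.05, 0 higher and 3 lower; median difference -0.21).

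None of the other measured TRIM genes linked to interferon or antiviral defence passed. Of 19 listed, 16 were measured and 0 passed in limma, with a median difference of -0.12 (at an unadjusted p under 0.05, 1 higher and 0 lower). After Trim6, the smallest unadjusted p-values belonged to Mefv, which encodes the inflammasome protein pyrin (difference -0.32 ± 0.15), Trim15 (-0.46 ± 0.23) and Trim31 (-0.37 ± 0.19). Trim56, an RNA-binding ligase of antiviral signalling, differed by 0.26 ± 0.18 and Pml, the organiser of PML nuclear bodies, by 0.20 ± 0.18. Trim26, whose window held 2 overlapping matches to GAAANNGAAA, ranged over 6.67 to 7.02 in RG7112 tumours, against 6.73 to 7.03 in vehicle tumours, a difference of 0.01 ± 0.18. Trim2, the other gene with a match, differed by -0.19 ± 0.17. The 8 TRIM genes known to act on p53 or Mdm2 were not shifted as a list (0 passed in limma, 0 in either direction at an unadjusted p under 0.05, median difference -0.03); Trim24, a ligase for p53, differed by -0.20 ± 0.19 and Trim28, a partner of Mdm2, by 0.02 ± 0.19. Neither the 4 genes of the Trim24, Trim28, Trim33 and Trim66 group (median 0.02) nor the 4 with NHL repeats (median -0.18) had a member that passed, or one with an unadjusted p under 0.05.

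**Figure D4:**
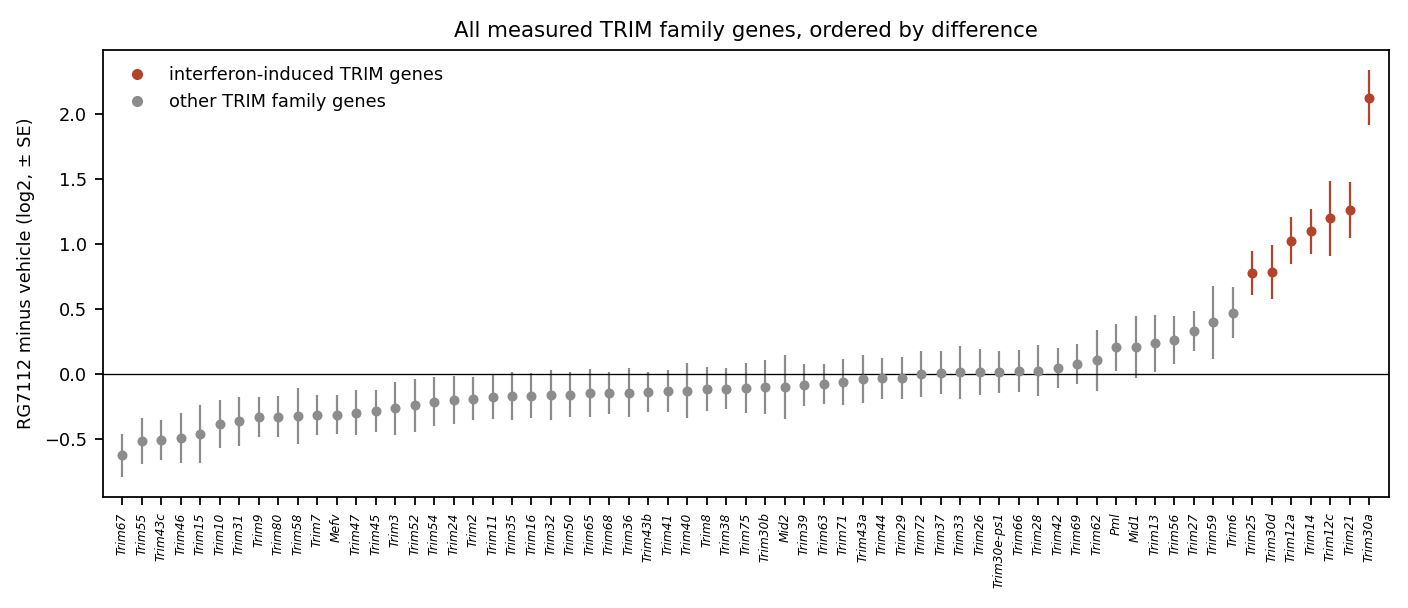
Difference between RG7112 and vehicle tumours (log2, error bars SE) for the 65 measured TRIM family genes, ordered by size. The 7 interferon-induced genes (red) lie at 0.78 to 2.12, and the 58 others (grey) between -0.63 (Trim67) and 0.47 (Trim6).

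The signalling partners of these proteins were examined through gene lists. These lists, and those of the later paragraphs, were chosen with earlier results of these data known, a limit on their p-values and counts. The RIG-I and Mavs pathway, in which Trim25 and Trim14 act, had 14 measured genes of which 0 passed in limma, with 6 higher and 0 lower at an unadjusted p under 0.05 and a median difference of 0.23. The sensors came nearest: Ddx58, which encodes RIG-I, averaged 7.29 in RG7112 tumours and 6.37 in vehicle tumours (difference 0.91 ± 0.20 SE, adjusted p = 0.0559), and Ifih1, which encodes the sensor MDA5, differed by 0.88 ± 0.19 (adjusted p = 0.0559). Both passed without vehicle tumour 3 (adjusted p = 0.0365 and 0.0430), but without vehicle tumour 4 they were at adjusted p = 0.548 and 0.549, and neither passed without any 1 of the RG7112 tumours. The adaptor Mavs itself differed by -0.19 ± 0.17 (adjusted p = 0.844) and the kinase Tbk1 by 0.44 ± 0.15 (adjusted p = 0.333).

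ISG15 conjugation, the attachment of a ubiquitin-like protein for which Trim25 can serve as ligase, was partly higher. Of its 5 genes 3 rose, 0 fell and 2 did not pass, with a median difference of 0.94. The ligase Herc6 rose by 1.10 ± 0.17 (adjusted p = 0.00783), the E2 enzyme Ube2l6 by 1.24 ± 0.21 (adjusted p = 0.0128) and the ISG15 protease Usp18 by 0.94 ± 0.18 (adjusted p = 0.0238). Isg15 itself differed by 0.51 ± 0.21 (adjusted p = 0.501) and its activating enzyme Uba7 was not among those that passed. Without vehicle tumour 4, 0 of the 5 passed in limma (adjusted p = 0.186, 0.281 and 0.104 for Herc6, Ube2l6 and Usp18; 3 had an unadjusted p under 0.05), and without vehicle tumour 3 only Ube2l6 did. Usp18 also did not pass without RG7112 tumour 1 (adjusted p = 0.0676) or 3 (adjusted p = 0.0807). Of the 10 E2 enzymes used by TRIM ligases, Ube2l6 was the only one that passed with all tumours, and the median difference of that list was 0.03.

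On the DNA-sensing side 3 of 10 genes rose and 0 fell, with a median difference of 0.44. They were the nucleic acid sensor Zbp1 (1.28 ± 0.17, adjusted p = 0.00281), Ifi204 (1.26 ± 0.17, adjusted p = 0.00342), a DNA sensor of the p200 family, and the nucleotide hydrolase Samhd1 (1.04 ± 0.16, adjusted p = 0.00653). Sting1, the adaptor, differed by 0.56 ± 0.17 (adjusted p = 0.241). None of the 3 passed without vehicle tumour 4, where 6 of the 10 had an unadjusted p under 0.05, and Ifi204 was the only one that passed without vehicle tumour 3.

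The NF-kB route on which Trim30a and Trim12c act showed 1 gene higher and 0 lower of 16 measured, with a median difference of 0.04. This was Myd88, the adaptor of Toll-like receptors, which rose by 1.01 ± 0.17 (adjusted p = 0.0119), a result lost without vehicle tumour 3 (adjusted p = 0.246), vehicle tumour 4 (adjusted p = 0.0730) or RG7112 tumour 3 (adjusted p = 0.0529). Traf6 differed by -0.24 ± 0.16 (adjusted p = 0.749). Among 11 genes around antibody sensing and disposal, 4 rose and 0 fell, with a median difference of 0.08, and all 4 encode Fc receptors at the surface of leukocytes: Fcgr4 (2.48 ± 0.26), Fcgr1 (1.34 ± 0.17), Fcgr3 (1.11 ± 0.19) and Fcgr2b (0.84 ± 0.18). Without vehicle tumour 4 only Fcgr4 passed (adjusted p = 0.0404), and Fcgr2b also did not pass without vehicle tumour 3 (adjusted p = 0.447), RG7112 tumour 1 (adjusted p = 0.115) or RG7112 tumour 3 (adjusted p = 0.121). Vcp, the unfoldase that Trim21 needs, was not among those that passed.

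Interferon signalling genes were higher in part. Of 19 measured receptors and signalling genes 3 rose and 0 fell: Irf1 by 1.22 ± 0.20 (adjusted p = 0.00890), Stat2 by 0.89 ± 0.16 (adjusted p = 0.0181) and Usp18, already described. Irf7, a factor of the type I response, differed by 1.15 ± 0.26 (adjusted p = 0.0638) and passed without RG7112 tumour 2 (adjusted p = 0.00668), and Irf9 differed by 0.65 ± 0.15 (adjusted p = 0.0786). Irf1 did not pass without vehicle tumour 4 (adjusted p = 0.191), and Stat2 did not pass without vehicle tumour 3 (adjusted p = 0.327), without vehicle tumour 4 (adjusted p = 0.116) or without RG7112 tumour 1 or 3. Of 19 interferon ligand genes 0 passed in limma, with 0 higher and 1 lower at an unadjusted p under 0.05; Ifng differed by 0.38 ± 0.28 and Ifnb1 by 0.20 ± 0.15.

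Effector genes of both interferon types were higher beside the TRIM genes. Of 18 interferon gamma effectors 15 rose, with a median difference of 1.54, and of 27 type I effectors 11 rose, with a median difference of 0.88, and none fell in either list. Without vehicle tumour 4 these counts were 0 and 1 in limma, with 17 and 19 higher at an unadjusted p under 0.05, and without vehicle tumour 3 they were 12 and 4. The per-tumour means of both lists had the 3 RG7112 tumours above the vehicle tumours, with RG7112 tumour 1 the highest, as in the mean of the TRIM genes.

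The genes whose pattern over the 5 tumours was closest to the mean of the 7 TRIM genes included several known interferon targets. Likeness was the root mean square difference between centred log2 profiles, and it was 0.04 for Phf11d, 0.05 for Dock10, 0.07 each for Parp12, Rsad2, Gbp7 and Ms4a4c, 0.08 for Lpxn, 0.09 each for Samhd1 and Cyth4 and 0.10 for Herc6. Phf11d measured 7.71, 7.40 and 7.42 in RG7112 tumours, against 6.33 and 6.20 in vehicle tumours. Since the profiles span both groups, likeness includes the size of the group difference.

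Markers of several cell types moved with the TRIM genes. Of 21 measured markers of macrophages and monocytes 13 rose and 0 fell, with a median difference of 1.30 (at an unadjusted p under 0.05, 17 higher and 1 lower), and their mean level was 7.12 to 7.47 in RG7112 tumours and 5.99 to 6.24 in vehicle tumours. Aif1 rose by 2.57 ± 0.20, Mpeg1 by 1.90 ± 0.16 and Adgre1 by 1.58 ± 0.18, and the pan-leukocyte gene Ptprc rose by 1.93 ± 0.21. Other macrophage markers did not pass, among them Cd14 (difference 0.29 ± 0.23), Mrc1 (0.29 ± 0.22) and the scavenger receptor Cd163, which was at 5.32, 4.99 and 4.95 in RG7112 tumours, against 5.72 and 5.57 in vehicle tumours (difference -0.56 ± 0.17, adjusted p = 0.240). Without vehicle tumour 4, 2 of the 21 passed, and without vehicle tumour 3, 10 did. The T cell mean was 5.36 to 5.40 in RG7112 tumours and 5.02 to 5.05 in vehicle tumours, with 1 of 13 genes higher, Cd8b1, which lost its call whichever tumour was left out. At an unadjusted p under 0.05, 5 of these 13 were higher and 0 lower. The mean of endothelial markers was 6.63 to 6.79 in RG7112 tumours and 6.30 to 6.34 in vehicle tumours, with 1 of 10 higher (5 at an unadjusted p under 0.05): Kdr, the VEGF receptor, rose by 1.01 ± 0.19, a call lost without either vehicle tumour or RG7112 tumour 2 or 3. The mean of dendritic cell markers was 5.40 to 5.57 in RG7112 tumours and 5.28 to 5.29 in vehicle tumours, with a median difference of 0.10. Of these 11 genes 1 was higher, Itgax (at an unadjusted p under 0.05, 3 higher and 0 lower). The Itgax call was lost without either vehicle tumour or RG7112 tumour 1 or 2. Its difference was between 0.82 and 1.16 with each tumour left out in turn. The NK cell mean was 4.40 to 4.60 in RG7112 tumours and 3.95 to 4.32 in vehicle tumours. Of these 9 genes 0 passed, with a median difference of 0.15 (at an unadjusted p under 0.05, 3 higher and 0 lower). Also 0 passed of 10 neutrophil markers (median difference -0.04) and of 9 markers of B cells and plasma cells (median difference -0.14). At the unadjusted threshold each of these 2 lists had 1 higher and 0 lower. Of 10 fibroblast markers 0 passed (median difference 0.21, 3 higher and 0 lower unadjusted). Of 10 keratinocyte and skin markers 0 passed (median difference -0.18, 0 higher and 2 lower unadjusted). The part of any of these cells in the TRIM differences was not tested. Melanocyte and melanoma markers averaged 11.16 to 11.20 in RG7112 tumours and 11.02 to 11.11 in vehicle tumours, and 0 of 16 passed in limma (2 higher at an unadjusted p under 0.05).

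**Figure D5:**
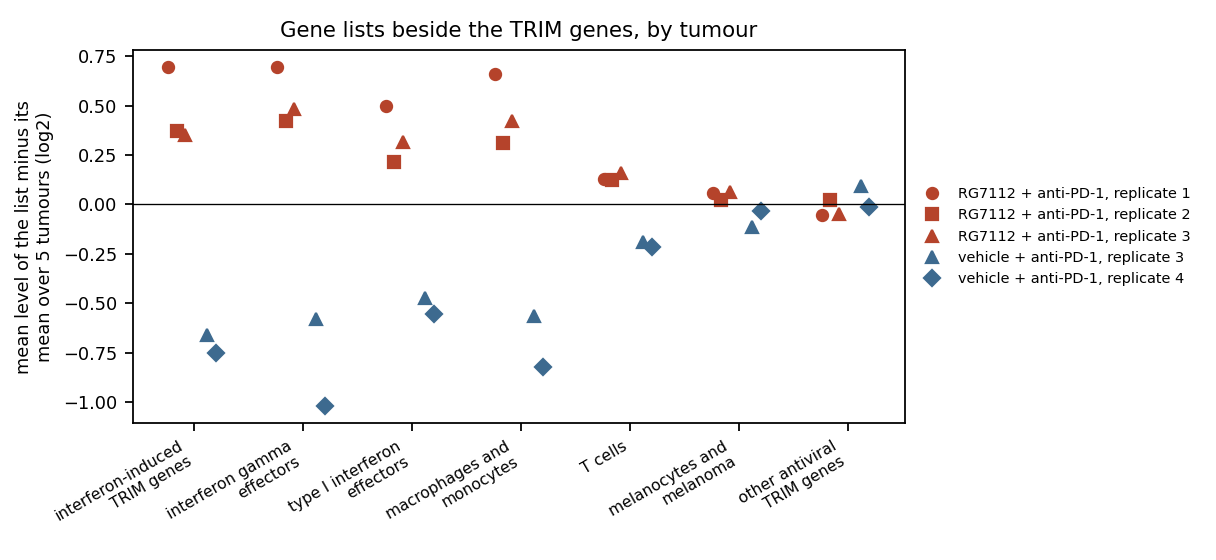
Mean log2 level of each gene list in each tumour, minus the mean of the list over the 5 tumours, RG7112 in red and vehicle in blue. The interferon-induced TRIM genes, both interferon effector lists and the macrophage markers have RG7112 tumour 1 highest and vehicle tumour 4 lowest, and the other antiviral TRIM genes lie between -0.05 and 0.09.

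The array medians were 5.76 to 5.81, and the count of arrays limits the precision. Over all 22203 probe sets, 315 were higher and 7 lower in RG7112 tumours, against 65 and 0 without vehicle tumour 4 and 151 and 1 without vehicle tumour 3 (limma; at an unadjusted p under 0.05, 892 higher and 674 lower without vehicle tumour 4). Of 22 measured p53 target genes 0 passed in limma (1 higher and 1 lower at an unadjusted p under 0.05), with Mdm2 at 0.34 ± 0.21 and Cdkn1a at -0.11 ± 0.17.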

How the data were processed

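The deposited values are log2 signals of Affymetrix Clariom S mouse arrays, 1 array per tumour, and per the submitters' processing notes the authors used oligo and RMA; their versions were not given in the sources used. Every array column was used (0 set aside). The platform annotation named 1 gene for 19572 of 22203 probe sets, several for 0 and none for 2631, and each of these 19572 had an Entrez identifier listed by RefSeq (GRCm38.p6).

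The difference RG7112 minus vehicle came from limma 3.58.1 under R 4.3.3, using lmFit and default eBayes with 3 residual degrees of freedom, then Benjamini-Hochberg adjustment over all probe sets at a threshold of 0.05. Every adjusted p is from this fit or the same fit without 1 tumour. An exact permutation test of a single gene could not go below p = 0.1 with these 5 tumours. The pipeline was tested on simulated data. Promoter windows are those of RefSeq, searched and aligned with Biopython 1.88.

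The genes, lists and tests were chosen with earlier results of these data known. Named genes are the 8 genes, other TRIM family genes by smallest unadjusted p, up to 4 genes per list by smallest unadjusted p, fixed signalling genes, and the 10 nearest profiles; Uba7, Vcp, Trim30b, Trim30e-ps1, Trim26, Trim2, Trim56, Pml, Cd14, Mrc1 and Cd163 were added for their roles, location, motif or as markers that did not pass. Alternatives were an intensity trend, robust fit, array weights, 3 further normalizations, a filter on dim probe sets, 1 probe set per gene, a looser threshold and leaving out each tumour. For the differences of the listed genes, the mean of all probe sets of a gene was also used.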

Additional observations from a re-analysis of the deposited data

How the results depend on the processing

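The differences of the 7 measured genes kept their direction under 9 alternatives each, and 59 of these values moved by less than the spread between replicates and 4 by more. Those 4 were Trim25 (0.56 and 0.99) and Trim14 (1.31 and 0.88) without vehicle tumours 3 and 4. Of the 9 alternatives 1, the mean of all probe sets of a gene, could not move any value, because each of the 7 genes has only 1 probe set. Its values are counted among the 59 and say nothing on stability. The median over the genes ran from 0.99 to 1.31 when a tumour was left out and was 1.15 and 1.17 with quantile and cyclic loess normalization. The number of them that passed, like the number of TRIM family genes that passed, was 1 to 4 when a tumour was left out and 3 to 6 otherwise: 3 without dim probe sets, where Trim14 was not tested, 5 with an intensity trend or median centring and 6 with array weights or at adjusted p under 0.10. No TRIM family gene was lower under any of these. Counting the passing genes under each setting was added after the data were seen. Over all probe sets, 65 to 268 were higher and 0 to 5 lower when a tumour was left out; 65 and 0 were without vehicle tumour 4 (limma, 892 and 674 at an unadjusted p under 0.05). The count of lower probe sets was 16 with array weights, 4 with cyclic loess, 2 without dim probe sets and 29 at adjusted p under 0.10. No normalization moved the median of all probe sets by over 0.1. No paired analysis was possible because each tumour came from its own mouse and the replicate numbers pair nothing. Trim30d, Trim12c and Trim14 lie among the dimmest 40% of probe sets, and their signal over background was not measured.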
